A study of Mus musculus with 6 samples.

Results

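The genes described here make, break down or receive prostaglandin E2. They are 9 genes given by symbol, Ptgs1, Ptgs2, Ptges, Ptges2, Ptges3, Hpgd, Ptger1, Ptger4 and Pla2g4a, out of 55367 rows in the deposited table. All 9 were found under these symbols. They were listed by name and not by their values, although earlier results of these data were known when the list was drawn up.

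Transcripts were counted by RNA sequencing in 6 libraries of LLC, a wild-type mouse cancer cell line from a Lewis lung carcinoma. In 3 libraries the cells had been kept with the solvent DMSO for 46 h, and in the other 3 with STM2457 at 5 µM for the same time. STM2457 is a small molecule that inhibits METTL3, the methyltransferase behind most N6-methyladenosine (m6A) in messenger RNA, and the comparison asks which transcripts differ between both treatments. It is a single cell line at a single dose and time, and the labels do not say whether replicates were separate cultures, so p-values cover only the spread between these libraries, which may be technical.

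The libraries held 17671705 to 17917210 reads in genes, and a gene with 0 reads could still have up to 3, which is 0.167 to 0.170 CPM (reads scaled by library total). Reads are whole numbers recovered from the deposited log2 values, and normalised reads are these after scaling by size factors. Of 9 markers of lung epithelium, 0 reached the level needed for testing, and the list summed to 13 to 17 reads per library in DMSO and 2 to 10 with STM2457, with Epcam, Cdh1 and Nkx2-1 at 0 in every library. Of 10 markers of macrophages and other myeloid cells, 2 were tested, and their values stand beside those of Ptgs2. The 6 tested of 7 fibroblast markers, which summed to 365 to 409 and 375 to 418 reads, had 1 higher and 2 lower, or 50% called. The similar sums hide opposite changes, named after their values were seen. Pdgfrb rose 2.54-fold, and Col1a2 and Lum fell to 0.465 and 0.289 of DMSO. Lum had only 25, 41 and 22 reads in DMSO and 12, 13 and 3 with STM2457. The lists for T and B cells and for endothelium summed to at most 6 and 10 reads in any library. In all, 56.3% of the 12618 tested genes passed limma's test at an adjusted p under 0.05, with 3868 higher and 3240 lower after STM2457. With the libraries centred on the upper quartile the split was 2819 higher and 4814 lower.

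Prostaglandins are short-lived lipid signals. A phospholipase frees arachidonic acid from membranes, a cyclooxygenase turns it into prostaglandin H2, and terminal synthases turn that into prostaglandin E2, which acts on neighbouring cells through the EP receptors and is inactivated by a dehydrogenase. The gene of the inducible cyclooxygenase, Ptgs2, is raised in many tumours, and prostaglandin E2 made by tumour cells is known to restrain T cells and dendritic cells. The Ptgs2 messenger is short-lived in many cells and carries AU-rich elements in its 3′ untranslated region.

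The windows below are shown because both cyclooxygenase transcripts encode closely related enzymes but differ in these letters. The GENCODE vM21 transcript of Ptgs2 holds 8 copies of GGACT, a common form of the sequence at which m6A is written, where the median over 10999 tested protein-coding genes is 3. That of Ptgs1 holds 2. Each window has 21 bases with GGACT in capitals, 5′ to 3′, on the sense strand. No m6A was measured in this experiment, and a match is a description and not a methylated site.
Ptgs2 site 2, coding: ctgtacccGGACTggattcta
Ptgs2 site 3, coding: tcacccgaGGACTgggccatg
Ptgs2 site 4, coding: catggagtGGACTtaaatcac
Ptgs2 site 5, coding: tggaacatGGACTcactcagt
Ptgs2 site 6, coding: ccttgaaaGGACTtatgggaa
Ptgs2 site 7, 3′ untranslated region: ttgaacctGGACTgcagaagg
Ptgs2 site 8, 3′ untranslated region: tcagctcaGGACTactatgta
Ptgs1 site 1, coding: atgctggtGGACTatggggtt
Ptgs1 site 2, 3′ untranslated region: gaacagatGGACTcatctatg

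Site 1 of Ptgs2 lies in its 5′ untranslated region and is not shown. Sites 7 and 8 start 1135 and 1351 bases after the stop codon. Of the tested protein-coding genes, 8.58% hold more copies of GGACT than Ptgs2. Per length the transcripts of Ptgs2, Ptges3 and Ptges hold 1.80, 1.5 and 1.37 copies per kb, those of Ptges2 and Ptgs1 0.804 and 0.698, and that of Pla2g4a 0.350, beside a median of 1.04.

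The motif ATTTA, the core of AU-rich elements, occurs 14 times in the 3′ untranslated region of Ptgs2, where the median gene has 2 and 2.25% of genes have more. The region of Ptgs1 holds 0 and that of Ptges 0. In Ptgs2 the motifs begin soon after the stop codon, and the window of 30 bases with the most of them, bases 12 to 41 of the untranslated region, holds 4 (capitals mark ATTTA, overlapping copies run together).
Ptgs2 AU-rich window: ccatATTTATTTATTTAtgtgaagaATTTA

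Ptgs2, the inducible cyclooxygenase, fell after STM2457, and Ptges2, a membrane-associated prostaglandin E synthase, rose. The other 4 tested genes, Ptgs1, Ptges, Ptges3 and Pla2g4a, did not pass the test. Hpgd, Ptger1 and Ptger4 were at or near 0 and could not be tested. Thus 1 member was lower and 1 higher of the 6 with enough reads, where 25.7% and 30.7% of all tested genes were lower and higher. This count was 1 higher and 3 lower with upper-quartile centring, and 2 higher and 2 lower without DMSO replicate 2. The median fold of the 6 tested members was 0.993, beside 1.01 for all tested genes.

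**Figure D1:**
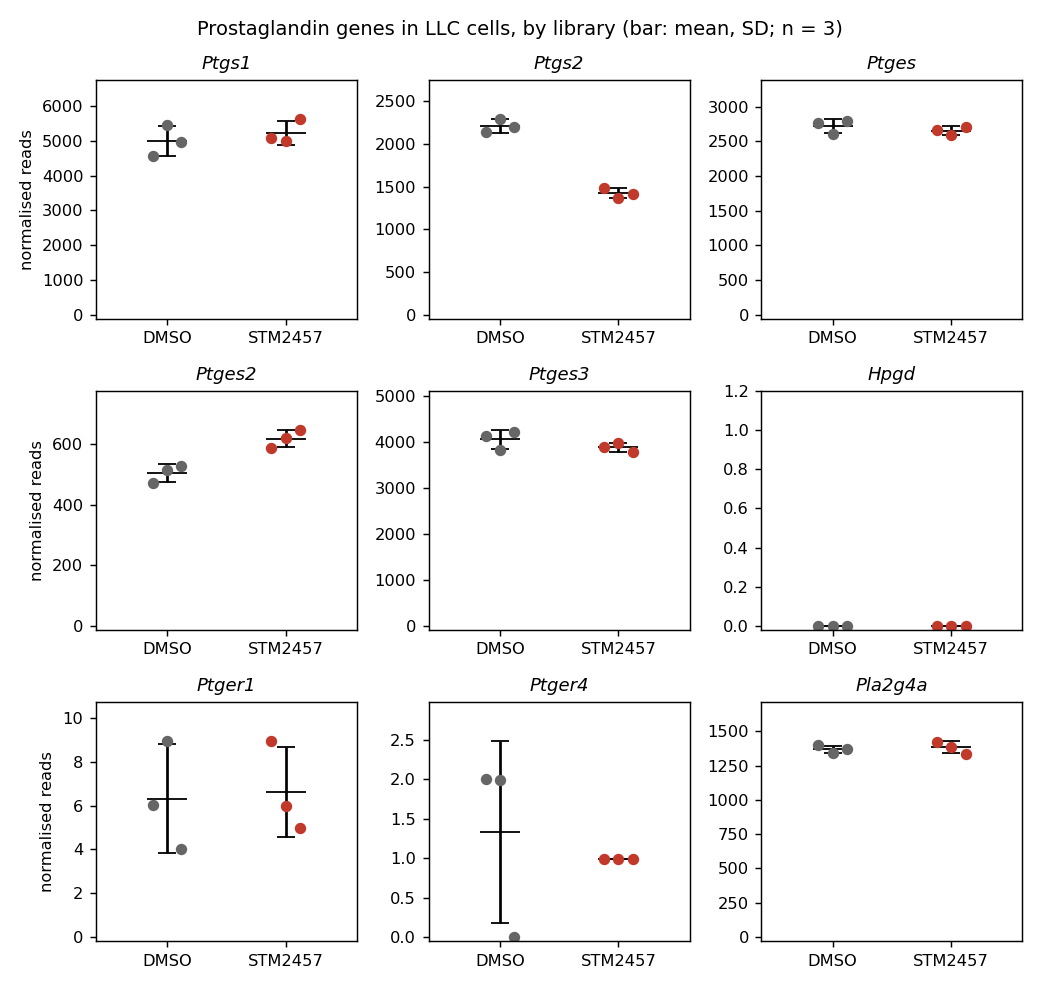
Normalised reads (vertical axes, from 0) of each of the 9 genes in the 3 DMSO and 3 STM2457 libraries; points are libraries, and bars show the mean and SD (n = 3). The groups are apart for Ptgs2 (2206 against 1422) and Ptges2 (503 against 617), and Hpgd is at 0 throughout.

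The cyclooxygenases carry out the committed step of the pathway, and the 2 genes behaved differently. Ptgs2 measured 2132, 2308 and 2181 reads in DMSO and 1493, 1378 and 1426 with STM2457, here and below in the order of replicates 1 to 3. Every STM2457 library lay below every DMSO library, as the groups also did not overlap in 61.8% of all tested genes. The normalised level fell from 2206 ± 79.1 to 1422 ± 57.3 reads (SD, n = 3), to 0.645 of the DMSO level (95% interval 0.606 to 0.686 by limma-voom on the recovered reads). In the deposited log2 values, which are shrunken towards the mean, the difference was -0.36 with a standard error of 0.02 (limma adjusted p = 1.23e-11). Of the tested genes 926, or 7.34%, had a larger fall. DMSO replicate 2 had the highest level, and without that library the difference was -0.34. Macrophages can express much Ptgs2. Their list of 10 markers summed to 278 to 308 reads per library in DMSO and 336 to 388 with STM2457. Most of these reads were of Cd14 and Cd68. Cd14 rose, with 181 ± 16.9 normalised reads in DMSO and 243 ± 16.8 with STM2457 (SD, n = 3), at a limma adjusted p of 3.37e-04. Cd68 did not pass, at 101 ± 10.4 and 96.6 ± 11.7. Adgre1, Itgam, Tyrobp and Aif1 were at 0, Ptprc and Csf1r had at most 1 read in any library, Fcer1g at most 5 and Lyz2 at most 12. The part of these markers in the Ptgs2 result was not tested.

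Ptgs1, which encodes the constitutive cyclooxygenase, measured 4568, 5500 and 4939 reads in DMSO and 5114, 5019 and 5688 with STM2457. The groups overlapped, with the DMSO replicates spread more widely than the distance between the group means. The means were 4999 ± 444 and 5235 ± 351 normalised reads (SD, n = 3), a fold of 1.05 with a 95% interval of 0.943 to 1.17 (limma adjusted p = 0.406). Without DMSO replicate 2, the library with the most Ptgs1 in its group, Ptgs1 was higher with STM2457 (log2 difference 0.078, adjusted p = 0.0213).

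Set against each other per exon length, reads of Ptgs2 made up 28.4%, 26.2% and 27.2% of the reads of both cyclooxygenases in DMSO and 19.8%, 18.9% and 17.5% with STM2457. The share was lower in all STM2457 libraries, at 18.8% ± 1.16 against 27.3% ± 1.06 (SD, n = 3). The exact two-sided permutation p was 0.1, the smallest that 3 libraries against 3 can give. Ptgs1 was the more abundant cyclooxygenase transcript in every library of both groups.

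**Figure D2:**
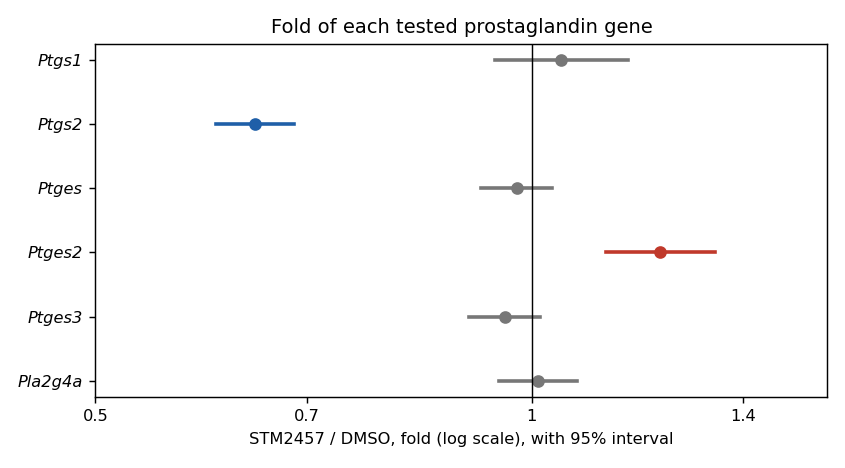
Fold of STM2457 over DMSO (horizontal axis, log scale) for the 6 tested genes, with the estimate of limma-voom as a point and its 95% interval as a line; blue marks lower, red higher and grey not called. The interval of Ptgs2 lies wholly below 1 and that of Ptges2 wholly above it, and the other 4 cross 1.

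The members include 3 terminal synthases of prostaglandin E2, of which Ptges2 was the only one to rise. Its libraries held 470, 516 and 524 reads in DMSO and 592, 622 and 651 with STM2457. All STM2457 libraries were above all DMSO libraries, where the groups did not overlap in 61.8% of all tested genes. The mean rose from 503 ± 28.9 to 617 ± 28.5 normalised reads (SD, n = 3). The fold was 1.23 with a 95% interval of 1.13 to 1.34 (limma adjusted p = 2.19e-04), and 17.5% of the tested genes had a larger rise.

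Ptges encodes the inducible microsomal synthase that is often expressed together with Ptgs2. It measured 2767, 2620 and 2779 reads in DMSO and 2680, 2609 and 2740 with STM2457. The groups overlapped, and the fold was 0.977 with a 95% interval of 0.923 to 1.03 (limma adjusted p = 0.481). With upper-quartile centring Ptges was lower (log2 difference -0.058, adjusted p = 0.0267).

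Ptges3 encodes the cytosolic synthase, a protein better known as the HSP90 cochaperone p23. It measured 4131, 3855 and 4189 reads in DMSO and 3912, 4001 and 3825 with STM2457, with overlapping groups. The fold was 0.958, with a 95% interval of 0.905 to 1.01 (limma adjusted p = 0.193). Upper-quartile centring made it pass as lower (log2 difference -0.074, adjusted p = 0.0054). So did leaving out DMSO replicate 2 (log2 difference -0.061, adjusted p = 0.0195). A processed copy in the table, Ptges3-ps, had 13 to 20 reads in each library, and reads may have been shared with it. By length, Ptges3 made up 69.8% ± 0.385 of the reads of the 3 synthases in DMSO and 68.7% ± 1.01 with STM2457. The share of Ptges2 was 3.8% ± 0.290 and 4.79% ± 0.242 (SD, n = 3), with the exact permutation p at its smallest value of 0.1.

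Upstream, Pla2g4a encodes cytosolic phospholipase A2 alpha, which frees arachidonic acid from membranes. It measured 1394, 1352 and 1362 reads in DMSO and 1435, 1397 and 1349 with STM2457. The fold was 1.01 with a 95% interval of 0.950 to 1.08 (limma adjusted p = 0.787), and it did not pass under any alternative tried.

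Downstream, Hpgd, the dehydrogenase that starts the inactivation of prostaglandin E2, had 0 reads in all 6 libraries, which allows at most 0.170 CPM in any of them, by counting error only. Ptger1, the gene of the EP1 receptor, had 6, 9 and 4 reads in DMSO and 9, 6 and 5 with STM2457. Ptger4, the gene of the EP4 receptor that raises cyclic AMP, had 2, 2 and 0 reads and 1, 1 and 1. A difference in either receptor was not detectable at this depth. The other receptor genes listed, which include Ptger2, Ptger3 and the receptors of other prostanoids, summed to 6 to 10 reads per library in DMSO and 4 to 5 with STM2457, and 0 of 8 were tested. Among them Ptgir, the prostacyclin receptor gene, named after its values were seen, had 3, 5 and 4 reads in DMSO and 0, 1 and 0 with STM2457.

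Levels of different genes can be compared only per length. In RPKM, reads scaled by exon length and library total, the order in DMSO was Ptges3 (103.6 ± 4.55), Ptgs1 (72.9 ± 6.83), Ptges (39.2 ± 1.28), Ptgs2 (27.3 ± 1.12), Pla2g4a (12.1 ± 0.197) and Ptges2 (5.63 ± 0.325; SD, n = 3). At these lengths each differed from its neighbours in the order by more than the spread of the libraries. With STM2457 the order by exon length was the same, with Ptgs2 at 17.5 ± 0.705 and Ptges2 at 6.87 ± 0.333 (SD, n = 3). Exon length joins all annotated exons of a gene, 6391 bases for Pla2g4a and 4580 for Ptgs2. The coding transcripts searched for motifs have 2856 and 4453 bases. The distance of Pla2g4a from Ptgs2 therefore depends on the length chosen. By the coding transcripts Pla2g4a would come just below Ptgs2 in DMSO and above it with STM2457. Ptger1 (0.0656 ± 0.0261 in DMSO) and Ptger4 came far below. Transcripts for each step from membrane lipid to prostaglandin E2 were present, and those of the 2 member receptors and the dehydrogenase were near or at 0.

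**Figure D3:**
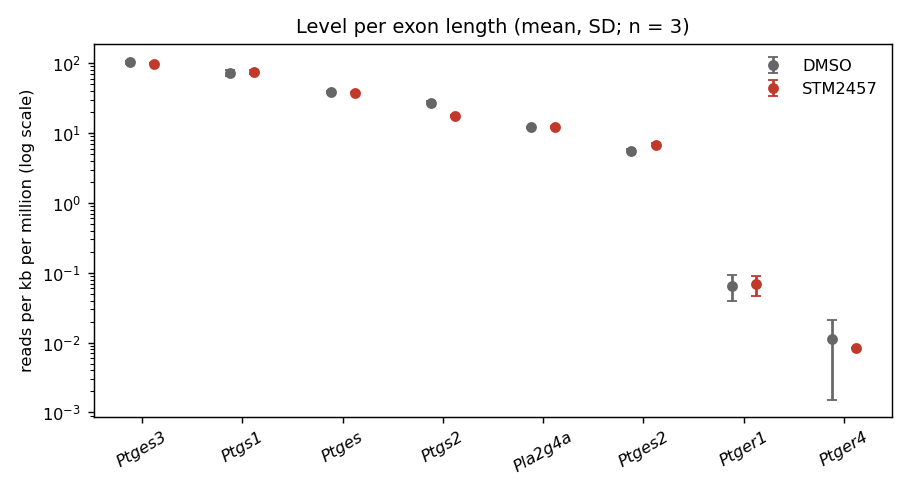
RPKM, reads scaled by exon length and library total (vertical axis, log scale), for the 8 genes with any reads, ordered by the DMSO level; points are means and bars SD (n = 3), grey for DMSO and red for STM2457. Ptges3 and Ptgs1 lead, and Ptger1 and Ptger4 lie under 0.1.

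In GRCm38 with the GENCODE vM21 annotation, Ptgs2 (ENSMUSG00000032487.8) occupies bases 150100031 to 150108227 of chromosome 1, plus strand. Pla2g4a (ENSMUSG00000056220.14) occupies bases 149829618 to 149961290 of the same chromosome, minus strand, and 138740 bases separate the 2 genes. Ptgs1 (ENSMUSG00000047250.13, 36230426 to 36252272, plus), Ptges (ENSMUSG00000050737.13, 30889471 to 30929863, minus) and Ptges2 (ENSMUSG00000026820.5, 32395896 to 32405772, plus) are all on chromosome 2. Ptges3 is on chromosome 10 from 128058954 to 128077272, and Ptger4 on chromosome 15 from 5206661 to 5244187. Hpgd and Ptger1 are on chromosome 8, from 56294585 to 56321043 and from 83666678 to 83672753. Whether reads were counted by strand is unknown here. Exons of Ptger4 (1015 and 82 bases) and Ptgs1 (148 bases) overlap other genes on the opposite strand, which leaves their reads uncertain.

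Noncoding genes named for Ptgs2 lie on the other strand to either side of it, and are described after their values were seen. Ptgs2os2, also called lincRNA-Cox2, lies on chromosome 1 from 150159043 to 150164948, 50815 bases beyond the end of Ptgs2, and is known as a regulator of immune genes in macrophages. It had 389, 387 and 397 reads in DMSO and 297, 281 and 297 with STM2457. The groups did not overlap, as in 61.8% of all tested genes. Ptgs2os2 fell to 0.741 of the DMSO level, with a 95% interval of 0.670 to 0.819 (limma adjusted p = 9.53e-06). Ptgs2os, which starts on the minus strand with 67 bases between it and the start of Ptgs2, had 79, 77 and 73 reads and 68, 67 and 60. It did not pass the test (0.846 of DMSO, 95% interval 0.687 to 1.04, limma adjusted p = 0.125), but passed as lower with upper-quartile centring (adjusted p = 0.0141). The exons of neither overlap those of Ptgs2.

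The promoters of the members that passed the test are shown, as the 250 bases before the RefSeq start in GRCm38.p6, on the plus strand of their chromosomes, 5′ to 3′. Promoters were found for 8 of the 9 members (not for Ptger1). Both strands were searched for the E-box CACGTG, for the cyclic AMP response element TGACGTCA and its part CGTCA, for the NF-kappa-B motif GGGATTCCC and a longer form of it with a further G in front, and for the TATA box TATAAA. Capitals mark matches.
Ptgs2, chr1:150099781-150100030: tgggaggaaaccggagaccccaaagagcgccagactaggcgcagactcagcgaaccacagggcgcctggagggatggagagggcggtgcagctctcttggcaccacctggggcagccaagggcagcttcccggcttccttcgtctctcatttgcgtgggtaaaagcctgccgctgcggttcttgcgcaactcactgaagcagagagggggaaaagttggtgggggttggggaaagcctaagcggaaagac
Ptges2, chr2:32395640-32395889: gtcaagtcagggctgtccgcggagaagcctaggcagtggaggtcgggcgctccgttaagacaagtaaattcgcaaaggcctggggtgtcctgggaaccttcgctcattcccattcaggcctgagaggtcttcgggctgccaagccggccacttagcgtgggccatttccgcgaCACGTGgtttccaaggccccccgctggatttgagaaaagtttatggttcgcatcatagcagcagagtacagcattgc

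In the Ptges2 window CACGTG, the E-box letters bound by MYC and USF proteins, lies 77 to 72 bases before the start. Of 32851 promoter windows of this length, 6.02% hold it. The Ptgs2 window holds none of the motifs in these exact letters. Bases farther upstream and bases after the RefSeq start were not searched, so sites of these factors there would be missed. In the remaining members the search found only TATAAA, in the reverse orientation at the second of the Pla2g4a starts, a motif that 12.4% of the windows hold.

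The rest of the eicosanoid pathway was described from 5 lists of 54 other genes, of which 25 had enough reads. Of these, 8 rose and 6 fell, or 56% against 56.3% of all tested genes, and the median fold was 1.05 beside 1.01. With upper-quartile centring 10 were lower and 8 higher. This share is near that of all genes.

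**Figure D4:**
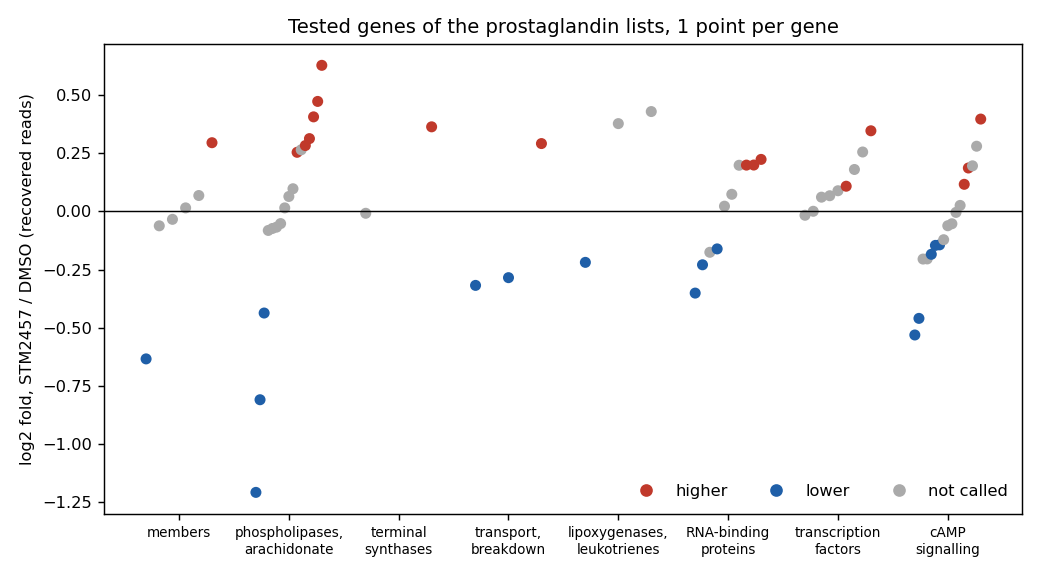
Log2 fold of STM2457 over DMSO from the recovered reads (vertical axis) for each tested gene of the member list and 7 others (horizontal axis); red marks higher, blue lower and grey not called. Every list with more than 3 tested genes, except the transcription factors, has called genes on both sides of 0.

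Among phospholipases and genes that handle arachidonic acid, 6 of 17 rose and 3 fell, or 7 with upper-quartile centring. The called share was 52.9%, beside 56.3% of all tested genes. Pla2g7, which encodes the secreted phospholipase that cleaves platelet-activating factor, measured 917, 1047 and 972 reads in DMSO and 547, 522 and 620 with STM2457. It fell to 0.571 (95% interval 0.522 to 0.624, limma adjusted p = 1.79e-10). Pla2g6, the calcium-independent phospholipase gene, fell from 705 ± 14.8 to 521 ± 17.0 normalised reads (SD, n = 3). Mboat7, whose enzyme puts arachidonic acid back into phosphatidylinositol, rose 1.22-fold, and Dagla, a diacylglycerol lipase gene, rose 1.39-fold. Pla2g4b, a relative of Pla2g4a named after its values were seen, had 25, 23 and 25 reads in DMSO and 10, 11 and 10 with STM2457 (limma adjusted p = 5.33e-04). Most of its annotated exon bases, 3878 of 5831, are shared with Gm28042 on the same strand, so this value is uncertain.

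Of 8 genes for other terminal synthases, 2 were tested. Akr1b3, an aldose reductase with prostaglandin F synthase activity, did not pass (fold 0.994, 95% interval 0.940 to 1.05), and the carbonyl reductase gene Cbr1 rose 1.29-fold (limma adjusted p = 4.03e-05). The synthases of prostaglandin D2, prostacyclin and thromboxane had at most 3 reads in any library. In transport and breakdown, Abcc4, an exporter of prostaglandins, rose from 975 ± 21.7 to 1193 ± 5.30 normalised reads. The reductases that act after the dehydrogenase fell: Ptgr1 from 1088 ± 17.8 to 893 ± 31.8, and Ptgr2 from 217 ± 2.87 to 174 ± 15.4 (SD, n = 3). Slco2a1, the prostaglandin uptake carrier, had at most 3 reads. Of the leukotriene genes, Lta4h, a hydrolase that makes leukotriene B4, fell to 0.859, Ltc4s and Aloxe3 did not pass the test, and Alox5, which starts the pathway, was at 0 in every library.

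Genes for RNA-binding proteins known to bind the Ptgs2 messenger went both ways, with 3 of 10 higher and 3 lower. The called share was 60%, near the 56.3% of all tested genes. With upper-quartile centring 2 were higher and 4 lower. Tia1 and Tial1, which repress translation through AU-rich elements, fell to 0.784 and 0.853 of DMSO (limma adjusted p = 3.51e-07 and 2.29e-05). Hnrnpd, which encodes the decay factor AUF1, fell to 0.894, and Khsrp, which encodes another decay factor, rose 1.15-fold. Elavl1 and Zfp36l2, named after their values were seen, also rose, 1.17-fold and 1.15-fold (limma adjusted p = 5.76e-04 and 0.00429). Of 9 tested genes for transcription factors known at the Ptgs2 promoter, 2 rose and 0 fell. That is 22.2% called, where 30.7% of all tested genes were higher and 25.7% lower. Rela, the NF-kappa-B subunit p65, rose from 2036 ± 29.8 to 2588 ± 48.8 normalised reads (SD, n = 3), with a limma adjusted p of 4.84e-08. Nfkb1, another subunit, rose 1.08-fold (limma adjusted p = 0.0232), a call that did not hold in 5 settings. Its adjusted p was 0.357 under upper-quartile centring and 0.0587 when low genes were kept. Leaving out STM2457 replicate 3, STM2457 replicate 1 or DMSO replicate 1 gave 0.102, 0.0519 and 0.0505. Cebpd and Jun did not pass (folds 1.13 and 1.06).

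Of 17 tested genes of the cyclic AMP signalling that EP2 and EP4 feed, 3 rose and 5 fell, with 9 lower under upper-quartile centring. The called share was 47.1%, beside 56.3% of all tested genes. Prkar2a, a regulatory subunit of protein kinase A, rose 1.32-fold. Nr4a2, a nuclear receptor gene that cyclic AMP induces, had 212, 270 and 272 reads in DMSO and 172, 168 and 182 with STM2457. It fell to 0.692 of DMSO (limma adjusted p = 5.59e-05). Its listed relatives Nr4a1 and Nr4a3 are named after their values were seen. Nr4a1 did not pass (fold 1.02, 95% interval 0.923 to 1.12, limma adjusted p = 0.765), and Nr4a3 had too few reads to test. Rapgef3, the gene of the cyclic AMP sensor EPAC1, fell to 0.727, and Arrb2 to 0.880. Of the called list genes named here, Pla2g7, Mboat7, Ptgr2, Khsrp, Hnrnpd, Elavl1, Zfp36l2 and Rapgef3 share exon bases with genes on the other strand. For Ptgr2 these are 1896 bases. Tia1 and Arrb2 share exon bases with genes on the same strand.

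The profile of Ptgs2 over the 6 libraries was compared with those of 9368 named genes with a mean of at least 100 reads, each centred on its own DMSO mean in log2 normalised reads. The smallest root mean square differences were those of Arntl2 (0.03), a circadian transcription factor gene, Gars (0.04), the glycyl-tRNA synthetase gene, Ogt (0.04), Smim10l1 (0.04) and Pim3 (0.04), a kinase gene. Their folds ran from 0.623 for Smim10l1 to 0.657 for Gars. Folds near that of Ptgs2 follow from how these genes were picked, and shared control was not tested.

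Tested genes with as many sequence motifs as Ptgs2 are given as a description. The 306 other genes with at least 14 copies of ATTTA in the 3′ untranslated region were higher in 27.8% and lower in 27.5% of cases, with a median fold of 0.994. The 1357 other genes with at least 8 copies of GGACT in the transcript were higher in 36.1% and lower in 23.7%, with a median fold of 1.03. Over all 10998 other tested protein-coding genes with a transcript these values were 33.9%, 24.5% and 1.02. Motif counts grow with transcript length, which was not matched here.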

How the data were processed

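FastQC 0.11.9, HISAT2 2.2.1, Subread's featureCounts 2.0.1, DESeq2 and the GRCm38 build are named, without roles, per the submitters' processing notes. Annotation, settings and strand: not given in the sources used here. Log2 values, 1 row per symbol and 1 column per library, were deposited by the authors without naming the transform. Their pattern matches a regularised log2 transform, which shrinks each gene towards its mean (fitted prior SD 0.186).

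Inverting its equations returned reads. Below a mean of 500 reads (17555 genes), 98.8% of values came out whole within 0.05 reads. For means of 500 to 2000 it was 88.4% and above that 70.4%. Values were rounded. Inversion and fit were also run on counts simulated through the same transform with the fitted settings. That run cannot show that the deposited values have this form.

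The test was limma 3.58.1 in R 4.3.3 (trend and robust priors, statmod 1.5.0, group as sole term) on deposited log2 values of the 12618 genes with a mean of at least 3.32. Benjamini-Hochberg adjustment ran over all of them. A count test had been foreseen for a table of counts, and was not used. Folds and their intervals come from limma-voom on the recovered reads. Lengths, overlaps and transcripts are from GENCODE vM21, promoters from RefSeq. Some exon overlaps are not reported here. Of the listed symbols, 1 (Fam213b) was matched through a RefSeq synonym.

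Members, lists and tests were chosen with earlier results of these data known. Named genes are the 9 members, up to 4 tested genes of smallest adjusted p per list, and the 5 profiles nearest to Ptgs2. Others are marked in the text. Alternatives were upper-quartile centring, other filters and priors, a replicate block, limma-voom, and each library left out.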

Additional observations from a re-analysis of the deposited data

How the results depend on the processing

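Under the 12 alternatives the fall of Ptgs2 and the rise of Ptges2 kept direction and call. The number of members called higher ran from 1 to 2 and lower from 1 to 2 over the libraries left out, both highest without DMSO replicate 2, where Ptgs1 (log2 difference 0.078, adjusted p = 0.0213) and Ptges3 (-0.061, adjusted p = 0.0195) passed. Over those 6 settings Ptgs1 ran from 0.0037 to 0.078 and Ptges3 from -0.061 to -0.021. Upper-quartile centring, which moves the median log2 difference of tested genes from 0.0038 to -0.0339, gave 3 members lower, adding Ptges (-0.058) and Ptges3 (-0.074), and 10 other pathway genes lower in place of 6. The cause of these changes was not tested. Of 31 other named genes, calls were lost in 5 settings, all of Nfkb1, and gained in 3, 1 each of Jun, Cebpd and Ptgs2os.

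The replicate number as a block changed no member's call (Ptgs2 -0.36, adjusted p = 6.13e-10, and Ptges2 0.15, adjusted p = 1.76e-04) and gave 3864 genes higher and 3226 lower. Same-numbered libraries shared little deviation (correlations 0.050, 0.011 and 0.040), so the numbers were not taken as pairs. Depth limits Hpgd, Ptger1 and Ptger4, for which no difference could be tested.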
